A study of Mus musculus with 71 samples.

Results

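Aldh1b1, Zfp397, Zfp819, P2ry6 and Lat2 are 5 of the 21527 genes counted in a SLAM-seq time course of mouse embryonic stem cells (mESC) treated with STM2457, an inhibitor of Mettl3. They were chosen by name, with earlier results of the same data known, for the read counts they had under STM2457 and its solvent DMSO at the first and the last time point, 6 h and 18 h. The values at 6 h and 18 h therefore chose the genes and are given here as a description with no test. Whether libraries of the other times or without the label had a part in the choice is not certain. Tests on them assume that they had none. The comparison asked when between those times each difference appeared and whether libraries made without the label showed it. The working name of the group, late responders to STM2457, was not shown to describe every member. By fitted value, with no test, the DMSO libraries at 18 h stood farther from their earlier level than the STM2457 libraries in several genes. These were Zfp397, Zfp819, P2ry6 and Lat2, within the errors for P2ry6 and Lat2. The values at 18 h chose the genes, and the share of all tested genes with this feature was not counted. Of all tested genes, 20.1% passed an adjusted p under 0.01 (edgeR) for this change in DMSO and 4.91% in STM2457. P2ry6 already had fewer reads in STM2457 at 6 h, a value that chose the gene, with 14 of the 22 DMSO reads in 1 library. At 7.5 and 11.3 h it had no fewer reads in STM2457 than in DMSO, so an early response is not shown. Aldh1b1 was higher in every STM2457 library at 7 h, and its treatments overlapped at 6, 7.5, 8.3 and 9.5 h. The genes are called by their names below.

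The cells were 1 line of male mESC kept in 2i/LIF medium, in 24-well plates seeded so that the wells would be full at collection. They were labelled with 100 µM s4U (4-thiouridine, a uridine analogue that is read as C after alkylation of the RNA) for 24 h and then chased with uridine. STM2457 (20 µM) or DMSO was added 6 h before the chase and kept in the medium. RNA was taken 0, 1, 1.5, 2.3, 3.5, 5.3, 8 and 12 h into the chase (T0 to T7), that is after 6, 7, 7.5, 8.3, 9.5, 11.3, 14 and 18 h of treatment, with 4 replicates of each treatment at each time except 3 for STM2457 at 9.5 h. A further 4 libraries of each treatment had no s4U, and their hours of treatment are not given in the labels. The labels number the time points, and the hours follow the study's time points. The study describes its replicates as biologically independent, and the labels say no more, so p-values measure the spread between these libraries. DMSO at each time is the background for STM2457 at that time. All 71 libraries were counted on 3′ end windows, with 4539726 to 7368244 reads per library (median 5726508). No pair of libraries was identical. Pou5f1, the pluripotency factor Oct4, was at group means of 698 to 985 RPM, whereas the leukocyte marker Ptprc had 2 reads in all libraries together and the myeloid marker Lyz2 had 0. In RNA from whole wells, fewer cells expressing a gene and less RNA of it per cell cannot be told apart.

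Mettl3 is the catalytic subunit of the complex that writes N6-methyladenosine (m6A) on mRNA, mostly in GGAC-type sequences near the end of the coding sequence and in the 3′ UTR. In mESC, methylated transcripts are often short-lived, and loss of m6A is known to prolong their life. The 5 genes belong to different pathways. Aldh1b1 encodes a mitochondrial aldehyde dehydrogenase that oxidises acetaldehyde and retinaldehyde. Zfp397 encodes a SCAN domain zinc finger protein and Zfp819 a KRAB domain zinc finger protein, a class that recruits the corepressor Trim28 to DNA. P2ry6 encodes a G protein-coupled receptor for UDP that signals through Gq and phospholipase C. Lat2 (also NTAL or LAB) encodes a transmembrane adaptor of mast cells and B cells that is phosphorylated by Syk and binds Grb2.

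The m6A motif was searched in the transcripts of all 5 genes, because STM2457 acts on the enzyme that methylates it. The letters searched were GGACA as well as GGACC and also GGACT, on the transcript strand only, in the longest coding transcript of the GENCODE M21 annotation (GRCm38). Aldh1b1 held 11 motifs (4.79 per kb), Lat2 8 (4.66 per kb), P2ry6 7 (3.60 per kb), Zfp397 13 (2.38 per kb) and Zfp819 6 (2.54 per kb). Of the 12230 tested genes with a coding transcript, 99.4% held at least 1, with a median of 3.67 per kb and 5% to 95% limits of 1.47 to 6.84 per kb, so all 5 genes lay within the usual range. The motif nearest to the end of the coding sequence is shown for 4 genes with 10 bases on each side, 5′ to 3′ in the direction of the transcript and with the motif in capitals.
Aldh1b1: cccgagacctGGACAaggccatcta
Lat2: gtgatgccctGGACTtctttggggg
P2ry6: acagtgttctGGACCccattctctt
Zfp819: tcagctgaagGGACAtcatccgatt
The Aldh1b1 motif lies in the coding sequence (chr4:45803818-45803842, plus strand), as does the P2ry6 motif (chr7:100938249-100938273, minus strand). The Lat2 motif (chr5:134600795-134600819, minus strand) and the Zfp819 motif (chr7:43617960-43617984, plus strand) lie in the 3′ UTR. A match describes the letters and does not show that the site is methylated.

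The genes lie on 4 chromosomes in GRCm38. Aldh1b1 spans chr4:45799022-45804604 on the plus strand, Lat2 chr5:134600022-134615025 on the minus strand, Zfp819 chr7:43607169-43618285 on the plus strand, P2ry6 chr7:100937630-100974649 on the minus strand and Zfp397 chr18:23954692-23964673 on the plus strand. All 5 are protein-coding. Counting windows were 250 to 313 bases long. A level is given as reads per 1000000 counted reads (RPM) of the same library. Over all libraries Zfp819 had 4491 reads, Zfp397 2334, Aldh1b1 1973, Lat2 563 and P2ry6 285, of which at most 5 reads of any 1 gene mapped to several places. All 5 genes passed the filter on low counts, which asked for about 1.75 RPM in 3 libraries. P2ry6 reached that level in 4 DMSO libraries at 18 h and in 4 libraries elsewhere, and Lat2 in 4 and 14. For P2ry6 and Lat2 a single library often held fewer than 10 reads, which limits what can be said of their time course.

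**Figure D1:**
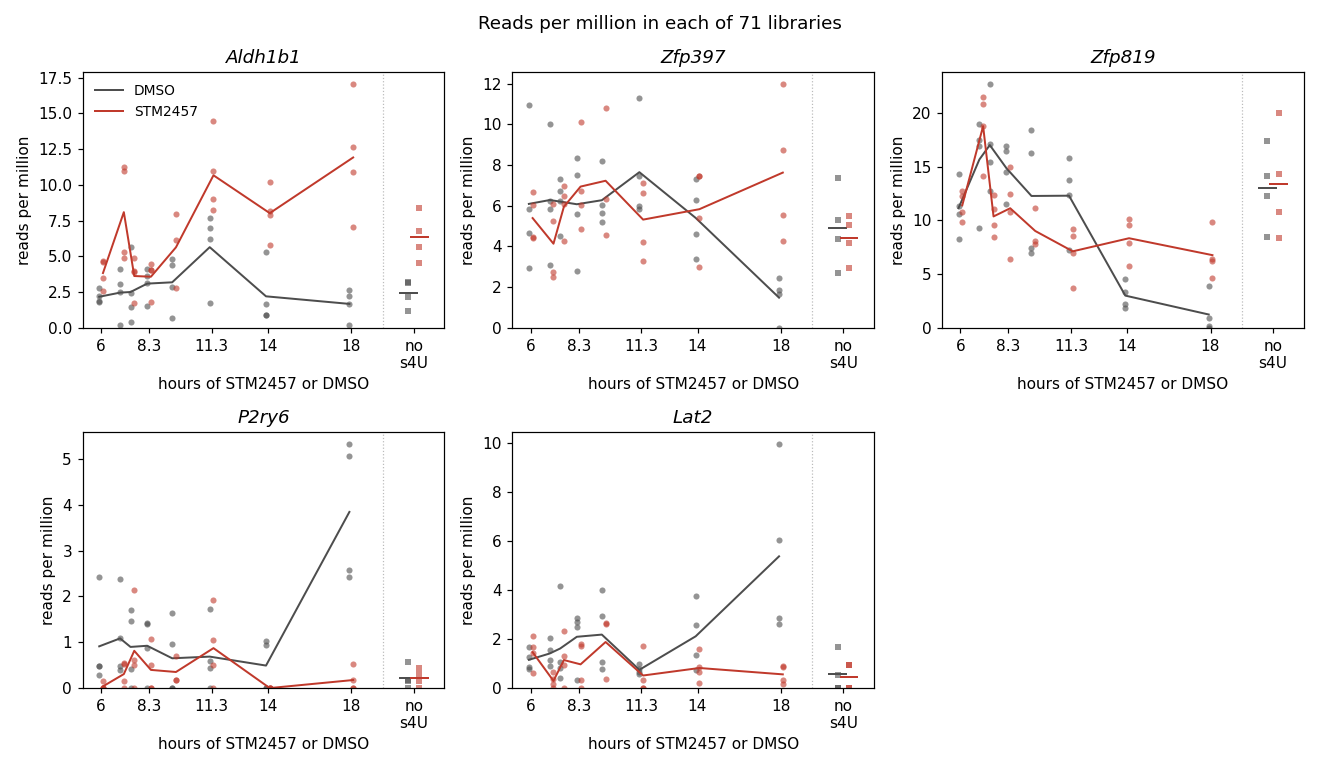
RPM (vertical axis) in each of the 71 libraries against hours of treatment (horizontal axis), 1 panel per gene, with DMSO in grey and STM2457 in red. Points are libraries, lines join group means, and squares at the right are libraries without s4U. At 18 h the DMSO group means of Zfp397 and Zfp819 are the lowest of their panels, and those of P2ry6 and Lat2 the highest.

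At 18 h, Aldh1b1, Zfp397 and Zfp819 were higher and P2ry6 and Lat2 lower in STM2457. Aldh1b1 was at 0.220, 2.62, 2.20 and 1.66 RPM in DMSO and at 17.1, 7.08, 10.9 and 12.6 in STM2457. Zfp397 was at 0, 2.43, 1.83 and 1.66 in DMSO and at 4.27, 12, 8.72 and 5.54 in STM2457. Zfp819 was at 0, 0.187, 0.917 and 3.86 in DMSO and at 4.62, 6.24, 9.81 and 6.40 in STM2457. The treatments did not overlap in any of these 3 genes. P2ry6 was at 2.42, 5.06, 5.32 and 2.57 in DMSO and at 0.533, 0.169, 0 and 0 in STM2457. Lat2 was at 2.86, 2.62, 6.05 and 9.93 in DMSO and at 0.889, 0.843, 0.156 and 0.346 in STM2457. Here too the treatments did not overlap, with DMSO above. The fitted log2 fold change of STM2457 over DMSO was 2.82 ± 0.55 (SE) for Aldh1b1, 2.36 ± 0.46 for Zfp397, 2.43 ± 0.44 for Zfp819 and -3.20 ± 1.02 for Lat2. The Zfp819 value rested on DMSO replicate 4, which held 21 of the 27 reads of its group, and was 4.10 without it. P2ry6 had 81 reads in DMSO against 4 in STM2457, a ratio of 23.2 after scaling to the reads counted (95% exact binomial interval 8.70 to 87.0, counting error only). In the order of fold changes over 12659 tested genes, Aldh1b1, Zfp819 and Zfp397 stood at places 64, 98 and 102 from the top, and P2ry6 and Lat2 at places 23 and 45 from the bottom. At this time 5.41% of tested genes passed an adjusted p under 0.01 (edgeR quasi-likelihood test, Benjamini-Hochberg), and 8.01% had all STM2457 libraries above all DMSO libraries and 10.1% below.

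At 6 h the picture differed by gene. Aldh1b1 was at 1.83 to 2.76 RPM in DMSO and at 2.54 to 4.66 in STM2457 (log2 fold change 0.83 ± 0.54), with overlapping libraries. Zfp397 (-0.15 ± 0.41), Zfp819 (0.05 ± 0.34) and Lat2 (0.34 ± 0.95) overlapped as well. P2ry6 had 22 reads in DMSO and 1 in STM2457, a ratio of 21.1 (95% exact binomial interval 3.41 to 870, counting error only). Of those 22 reads, 14 came from DMSO replicate 1. At 6 h 1.68% of tested genes passed the threshold, and 4.95% had all STM2457 libraries below all DMSO libraries, as P2ry6 had.

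The level at 18 h was also set against the earlier level of the same treatment, as a description, since the values at 18 h chose the genes. Against the mean of 7 to 11.3 h of the same treatment, Zfp819 at 18 h was at a log2 fold change of -3.57 ± 0.39 in DMSO and -0.73 ± 0.29 in STM2457. Zfp397 was at -2.20 ± 0.40 in DMSO and 0.31 ± 0.31 in STM2457. P2ry6 was at 2.05 ± 0.74 in DMSO and -1.52 ± 1.12 in STM2457, and Lat2 at 1.69 ± 0.63 and -0.61 ± 0.84. In these 4 genes the fitted departure was larger in DMSO than in STM2457, within the errors for P2ry6 and Lat2. The difference was not tested, and the share of all tested genes with a larger departure in DMSO was not counted. P2ry6 and Lat2 had little room to fall in STM2457, with means of 0.461 and 0.894 RPM over 7 to 14 h. For Aldh1b1 the values were -1.03 ± 0.47 in DMSO and 0.95 ± 0.36 in STM2457, of opposite sign and similar size. Over all tested genes, 20.1% passed the threshold for this change in DMSO and 4.91% in STM2457. The DMSO libraries at 18 h were also shallower than the median library, with 4539726 to 5453473 reads, and whether depth had a part was not tested. With library totals as the only scaling, the median of all genes in this contrast was 0.17 in DMSO and 0.11 in STM2457, against 0.05 and 0.02 with TMM scaling, and 72.8% of the calls in DMSO and 73.8% in STM2457 were higher, against 48.5% and 41.5%. The signs of all 5 genes were the same under both scalings.

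**Figure D2:**
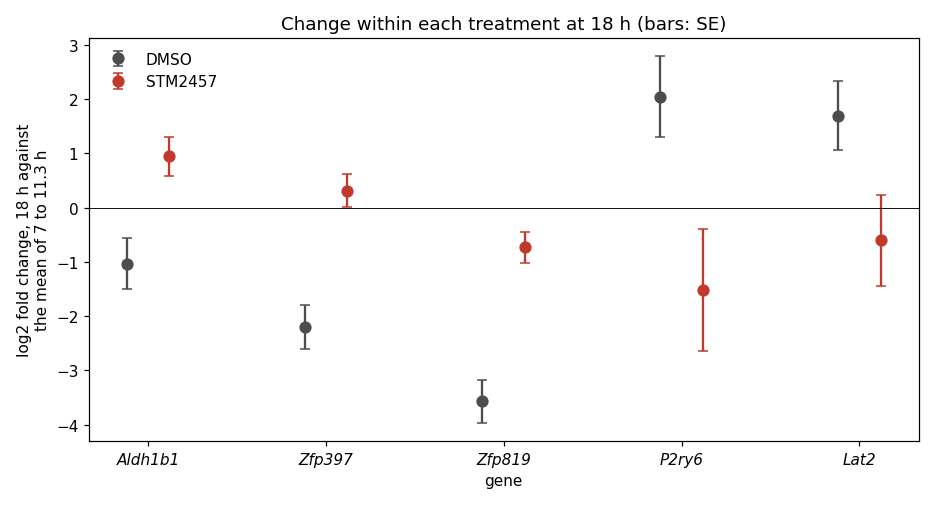
Fitted log2 fold change (vertical axis) of 18 h against the mean of 7 to 11.3 h within DMSO (grey) and within STM2457 (red) for each gene (horizontal axis), with bars of 1 SE. The grey points of Zfp397, Zfp819, P2ry6 and Lat2 lie farther from 0 than the red ones, and Aldh1b1 has -1.03 in DMSO and 0.95 in STM2457.

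The libraries at 18 h were also set beside the other groups as a description, since their values chose the genes. How many of all tested genes stood apart in this way was not counted. Set beside the other 17 groups, the DMSO libraries at 18 h stood alone for 2 genes. All 4 were below every library of every other group for Zfp397, and all 4 above every library of every other group for P2ry6. For Zfp819 they were wholly below 15 of the 17 groups and overlapped DMSO at 14 h and STM2457 at 11.3 h, and for Lat2 they were wholly above 12. For Aldh1b1 they were wholly below 6 groups only, and its STM2457 libraries at 18 h were wholly above 11. In the order of group means, neighbouring groups overlapped throughout for Aldh1b1 and Lat2. For Zfp397 the only gap was below STM2457 at 7 h, next to the lowest group, for Zfp819 it was below STM2457 at 18 h, and for P2ry6 it was below the highest group.

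None of the 5 genes passed an adjusted p under 0.01 at any of the 6 times between 7 and 14 h (edgeR, 12659 genes tested). DESeq2 passed 1 of them, Zfp819 at 14 h. The share of all tested genes that passed with edgeR was 1.53% at 7 h, 8.18% at 7.5 h, 1.61% at 8.3 h, 1.3% at 9.5 h, 4.45% at 11.3 h and 2.34% at 14 h, and against such shares a count of 0 of 5 says little of the genes. At an unadjusted p under 0.05, 2 of the 5 passed at 7 h (Aldh1b1 and Lat2, 13.4% of tested genes), 1 at 11.3 h (Zfp819, 25.7%) and 3 at 14 h (Aldh1b1, Zfp819 and P2ry6, 16.7%). The genes differed in how their values ran over these times, as follows.

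**Figure D3:**
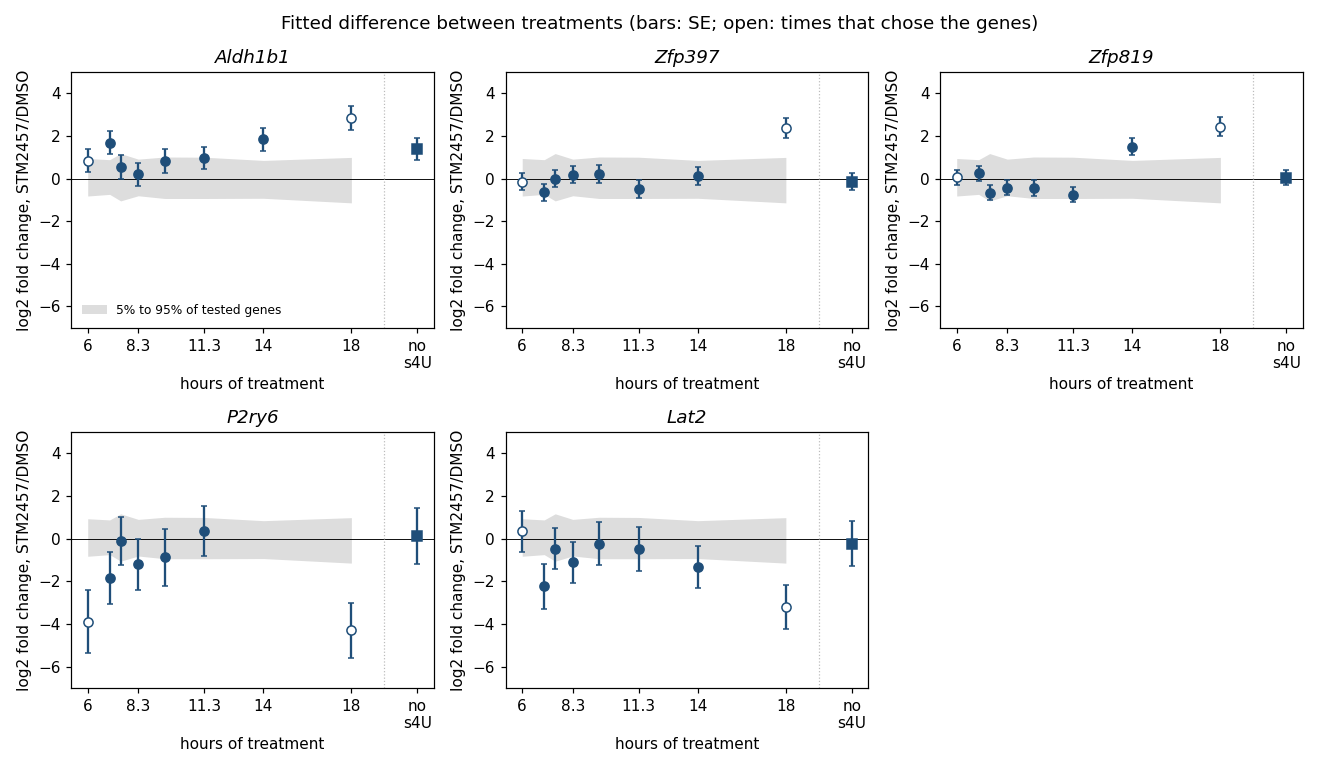
Fitted log2 fold change of STM2457 over DMSO (vertical axis, bars of 1 SE) against hours of treatment (horizontal axis), with libraries without s4U at the right and the 5% to 95% range of all tested genes in grey. Open points are the times that chose the genes, and P2ry6 has no point at 14 h because its STM2457 libraries held 0 reads. Aldh1b1 lies above 0 at every time, Zfp819 crosses from -0.75 at 11.3 h to 1.49 at 14 h, and Zfp397 leaves the grey range at 18 h alone.

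Zfp819 had a lower level in DMSO at 14 h than at 11.3 h. In DMSO it was at 7.28, 12.4, 15.8 and 13.8 RPM at 11.3 h and at 3.32, 1.88, 4.58 and 2.21 at 14 h. The 4 libraries at 14 h were all below the 4 at 11.3 h, a gap whose share over all tested genes was not counted. In STM2457 it was at 9.23, 8.51, 7.01 and 3.75 at 11.3 h and at 7.86, 10.1, 5.76 and 9.60 at 14 h, and these overlapped. At 14 h the STM2457 libraries were thus all above the DMSO libraries, 8.34 ± 1.98 against 3.00 ± 1.22 (SD, n = 4 each), where 6.61% of tested genes had the treatments apart in this direction. The log2 fold change at 14 h was 1.49 ± 0.39 (edgeR adjusted p = 0.0127), just outside the threshold. It passed without DMSO replicate 3 (adjusted p = 0.00948), without STM2457 replicate 3 (0.00962), with no filter on low counts (0.00921) and with DESeq2 (0.00146), and the range without 1 library was 1.33 to 1.76. From 7.5 to 11.3 h the difference had the opposite sign. At 7.5 h all 4 STM2457 libraries, at 9.61, 12.4, 11 and 8.46, were below all 4 DMSO libraries, at 15.5, 22.7, 12.7 and 17.2 (12.3% of tested genes had the treatments apart in this direction), and the log2 fold change was -0.66 ± 0.35 (edgeR adjusted p = 0.178). At 11.3 h it was -0.75 ± 0.36 (adjusted p = 0.167). The mean over 7 to 14 h was -0.09 ± 0.15 (adjusted p = 0.692).

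The course of Zfp819 in DMSO passed the test by itself. Between 7 and 14 h it fell by 0.33 per hour on the log2 scale in DMSO (SE 0.05, edgeR adjusted p = 1.21e-06), where 6.45% of tested genes passed, while the slope in STM2457 was -0.14 ± 0.04 (adjusted p = 0.0285) and 3.82% passed. With library totals as the only scaling, 67.4% of the calls of the DMSO slope and 77.2% of those of the STM2457 slope were higher, against 40.2% and 55.3% with TMM scaling. The difference between the slopes, 0.19 ± 0.06 per hour, had an adjusted p of 0.172 with edgeR, and 0.237% of tested genes passed. A step, 14 h against the mean of 7 to 11.3 h, was chosen after the lower values at 14 h were seen, so its p restates them and is no independent support. In DMSO Zfp819 fell by 2.3 on the log2 scale at this step (SE 0.34, edgeR adjusted p = 1.58e-06), where 4.96% of tested genes passed, 41.2% of them higher (71.3% with library totals only). In STM2457 the step was -0.40 ± 0.28 (adjusted p = 0.61), where 0.324% passed. The difference between the steps was 1.89 ± 0.42 (adjusted p = 0.0141, where 0.182% of tested genes passed), outside the threshold with edgeR and inside it with no filter on low counts (0.00766) and with DESeq2 (0.000717).

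Zfp397 showed no such early separation. At 14 h it was at 6.28, 3.39, 7.33 and 4.6 RPM in DMSO and at 7.44, 3.01, 5.41 and 7.45 in STM2457. The libraries were interleaved, with a log2 fold change of 0.13 ± 0.41 (95% interval -0.68 to 0.94, edgeR adjusted p = 0.932). From 6 to 14 h its DMSO group means ran from 5.40 to 7.65, and at 18 h the mean was 1.48 ± 1.04 (SD, n = 4). In STM2457 they ran from 4.13 to 7.22, with 7.63 ± 3.45 at 18 h. The mean difference over 7 to 14 h was -0.11 ± 0.17 (adjusted p = 0.687), and its slopes were -0.02 ± 0.05 per hour in DMSO and 0.01 ± 0.05 in STM2457. The lower level in DMSO was measured at 18 h alone, in libraries with 0, 13, 10 and 9 reads.

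Aldh1b1 had a higher fitted value in STM2457 at every labelled time and passed the edgeR threshold at none of the 6 times from 7 to 14 h. At 6 h it was higher in STM2457 in 15 of 16 pairs of libraries, so no onset at 7 h is shown. At 7 h it was at 0.169, 3.08, 2.53 and 4.08 RPM in DMSO and at 11.2, 4.86, 5.29 and 11 in STM2457. At 11.3 h it was at 1.72, 6.20, 7.67 and 6.98 against 9.04, 10.9, 8.24 and 14.5, and at 14 h at 0.923, 1.70, 0.916 and 5.28 against 10.2, 7.89, 8.21 and 5.80. At these 3 times, as at 18 h, every STM2457 library was above every DMSO library, where 3.57% of tested genes at 7 h, 7.28% at 11.3 h and 6.61% at 14 h had the treatments apart in this direction. At 7.5, 8.3 and 9.5 h the treatments overlapped, and STM2457 was higher in 11 of 16, 11 of 16 and 9 of 12 pairs of libraries.

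The fitted log2 fold change of Aldh1b1 was 1.69 ± 0.53 at 7 h (edgeR adjusted p = 0.0624), 0.54 ± 0.55 at 7.5 h, 0.19 ± 0.53 at 8.3 h, 0.83 ± 0.56 at 9.5 h, 0.95 ± 0.50 at 11.3 h (adjusted p = 0.219) and 1.85 ± 0.54 at 14 h (adjusted p = 0.0285). At 14 h the value rested on DMSO replicate 4, which held 31 of the 50 DMSO reads, and was 2.76 (adjusted p = 0.00292) without it. Taken as the mean of all 6 times, a contrast chosen after the values were seen, Aldh1b1 rose by 1.01 ± 0.22 on the log2 scale in STM2457 (adjusted p = 0.000167), with 3.18 ± 2.13 RPM in 24 DMSO libraries and 6.65 ± 3.38 in 23 STM2457 libraries (SD). In this contrast 21.5% of tested genes passed, and 1 of the 5 genes did. It passed without each replicate number in turn (adjusted p = 0.000527 to 0.00769). Its slope over 7 to 14 h was 0.01 ± 0.07 per hour in DMSO and 0.12 ± 0.06 in STM2457, and the difference between them, 0.11 ± 0.09, had an adjusted p of 0.745. A growing gap over time was therefore not shown within these 6 times.

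P2ry6 was close to the detection limit at most times. Between 7 and 14 h it had 106 reads in 24 DMSO libraries and 60 in 23 STM2457 libraries, and no library of these times held over 14. At 14 h it had 0, 5, 0 and 6 reads in DMSO and 0 in all 4 STM2457 libraries together, which allows up to 0.138 RPM at 3 reads in the group. Against that limit the 11 reads of DMSO were 3.62-fold higher after scaling to the reads counted. This is no lower bound, since the counting error of the DMSO reads is left out, and the libraries of the treatments overlapped at 0. The edgeR adjusted p at 14 h was 0.15, and at 7 h, with 25 reads in DMSO against 7 in STM2457, it was 0.579. The times between did not all run this way. The reads in DMSO and STM2457 were 18 and 19 at 7.5 h and 23 and 9 at 8.3 h. They were 15 and 6 at 9.5 h (3 STM2457 libraries) and 14 and 19 at 11.3 h. The fitted log2 fold change was -0.11 ± 1.15 at 7.5 h and 0.35 ± 1.17 at 11.3 h. The mean over 7 to 14 h had an adjusted p of 0.0387, outside the threshold. In DMSO the group means from 6 to 14 h ran from 0.491 to 1.08 RPM with single libraries up to 2.41, and at 18 h the mean was 3.84 ± 1.56 (SD, n = 4) with no library under 2.42. In the DMSO libraries the higher level was measured at 18 h alone.

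Lat2 was measured at a slightly higher read number than P2ry6. At 14 h it was at 0.739, 3.77, 2.56 and 1.36 RPM in DMSO and at 0.850, 0.188, 1.57 and 0.662 in STM2457. STM2457 was lower in most pairs, but the libraries overlapped, and the log2 fold change was -1.33 ± 0.97 (95% interval -3.23 to 0.58, edgeR adjusted p = 0.551). At 7 h all 4 STM2457 libraries, with 4, 1, 0 and 2 reads, were below all 4 DMSO libraries, with 12, 5, 8 and 7 reads (1.63% of tested genes had the treatments apart in this direction), and the log2 fold change was -2.22 ± 1.06 (adjusted p = 0.334). The libraries overlapped at 7.5, 8.3, 9.5 and 11.3 h. Reads in DMSO and STM2457 were 33 and 27 at 7.5 h and 52 and 21 at 8.3 h. They were 51 and 32 at 9.5 h (3 STM2457 libraries) and 15 and 12 at 11.3 h. Fitted log2 fold changes at these times were -0.47 ± 0.96, -1.11 ± 0.96, -0.22 ± 1.00 and -0.47 ± 1.04. The mean over 7 to 14 h, with 229 reads in DMSO and 117 in STM2457, was -0.97 ± 0.41 (adjusted p = 0.0606). In DMSO the group means from 6 to 14 h ran from 0.744 to 2.18 RPM, and at 18 h the mean was 5.37 ± 3.42 (SD, n = 4), with 54 of its 114 reads in replicate 4.

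In the libraries without s4U the treatments were apart for Aldh1b1 and overlapped for Zfp397 and Zfp819. Aldh1b1 was at 3.12, 2.17, 3.22 and 1.15 RPM in DMSO and at 4.53, 5.63, 8.37 and 6.77 in STM2457. Every STM2457 library was above every DMSO library (5.66% of tested genes had the treatments apart in this direction), and the log2 fold change was 1.37 ± 0.53 (95% interval 0.34 to 2.41, edgeR adjusted p = 0.11), where 2.58% of tested genes passed. Zfp397 was at 4.34, 7.35, 5.32 and 2.68 in DMSO and at 4.15, 5.04, 2.95 and 5.51 in STM2457, a log2 fold change of -0.15 ± 0.42 (95% interval -0.96 to 0.67, adjusted p = 0.893). Zfp819 was at 14.1, 17.4, 12.3 and 8.43 in DMSO and at 20, 10.8, 8.37 and 14.3 in STM2457, a log2 fold change of 0.05 ± 0.34 (95% interval -0.62 to 0.72, adjusted p = 0.963). P2ry6 had 5 reads in DMSO and 6 in STM2457, and Lat2 14 and 11, too few to show a difference. No gene of the 5 passed the threshold without s4U, and 1 (Aldh1b1) had an unadjusted p under 0.05, as 20.2% of tested genes did. All 4 unlabelled DMSO libraries of Zfp819 were above all labelled DMSO libraries at 14 and 18 h. The values at 18 h chose the gene, and the share of all tested genes with such a gap was not counted. Since the hours of treatment of the unlabelled libraries are not known, s4U and the time of collection cannot be told apart.

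The T-to-C conversion rate, the share of covered T positions read as C, follows the RNA that was made during labelling. It is given for Aldh1b1, Zfp397 and Zfp819, which had 366 to 1221 covered T positions per library on average, and not for P2ry6 and Lat2, which had 36.3 to 147. Zfp819 started at 1.19 ± 0.78% in DMSO (59 conversions) and 1.16 ± 0.96% in STM2457 (73 conversions; SD, n = 4 each) and was at 0.827 ± 0.524% and 0.780 ± 0.277% after 1 h of chase. At 3.5 h of chase they were at 0.041 ± 0.081% and 0.052 ± 0.090%, and at 8 h at 0 and 0.392 ± 0.727% (11 conversions in STM2457, 10 of them in replicate 3). Zfp397 started at 1.31 ± 0.89% and 1.12 ± 0.75%, and Aldh1b1 at 2.60 ± 1.66% and 0.704 ± 0.565%. In unlabelled DMSO libraries Zfp819 had 1 conversion in 6473 covered T positions, while Zfp397 in unlabelled STM2457 libraries had 9 in 1964, all in replicate 1. In 21 comparisons of the treatments (3 genes, T1 to T6 and unlabelled), the smallest p of a two-sided exact permutation test was 0.0857 (Aldh1b1 at 11.3 h) and no p passed after adjustment (smallest adjusted p = 1.0). The smallest p that 4 against 4 libraries allow is 0.0286, above the threshold of 0.01, so no single comparison could pass it. At 18 h the DMSO libraries held 0 conversions for Zfp819 in 500 covered T positions, which allows a rate of up to 0.6%, so a difference at that time was not detectable.

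**Figure D4:**
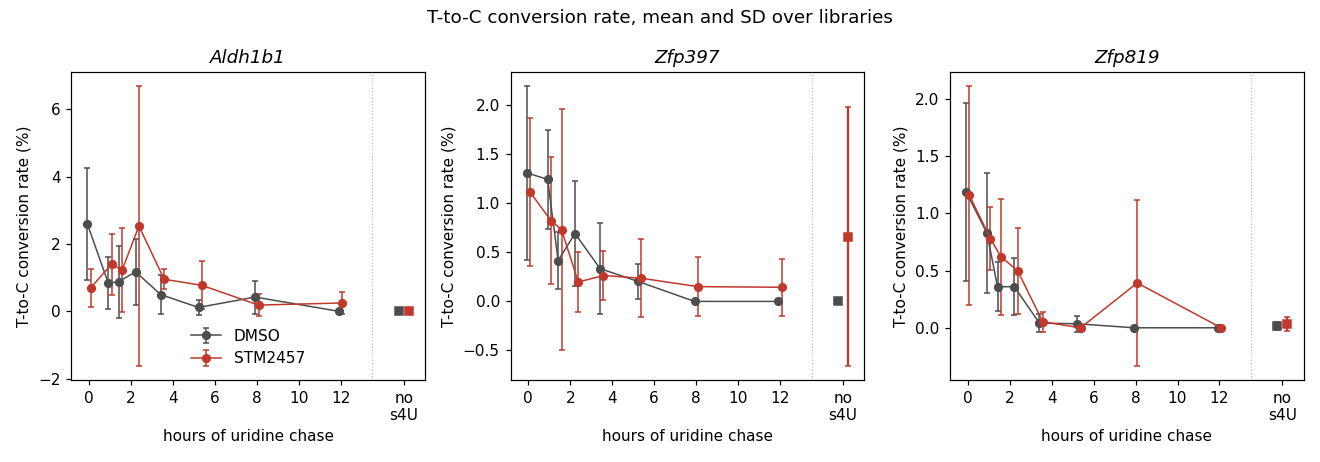
T-to-C conversion rate in percent (vertical axis, mean and SD over libraries) against hours of uridine chase (horizontal axis) for the 3 genes with enough reads, in DMSO (grey) and STM2457 (red), with unlabelled libraries at the right. Both treatments of Zfp819 start at 1.19% and 1.16% and are at 0.041% and 0.052% at 3.5 h.

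A half-life was fitted as an exponential decay of the background-corrected rate, set to 1 at the start of the chase. A fit was kept with more than 100 covered T positions on average, a half-life of 0.67 to 18 h and a residual error no higher than 0.3. Zfp819 alone kept a fit under both treatments, with 1.13 h under DMSO and 1.47 h under STM2457. Without 1 replicate in turn these were 0.788 to 1.78 h and 1.33 to 1.82 h, the value of 1.78 h being that without replicate 1. Of the replicate series fitted singly, 2 kept a fit under DMSO, at 1.05 and 1.35 h, and 3 under STM2457, at 0.998, 1.50 and 1.63 h. No test is given, because the fit uses the libraries at 6 h and 18 h that chose the gene. Aldh1b1 (1.14 h) and Zfp397 (1.91 h) kept a fit under DMSO only, and P2ry6 and Lat2 under neither treatment. These depended on 1 replicate: Aldh1b1 under DMSO was at 2.19 h without replicate 2 and lost its fit without replicate 3, and Zfp397 lost its fit under DMSO without replicate 2 and kept one under STM2457 (3.07 h) without replicate 1.

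Genes related to the 5 by family or pathway were counted at 14 h and without s4U. Of 13 tested aldehyde dehydrogenases other than Aldh1b1, 0 passed the threshold at either, with a median log2 fold change of -0.001 at 14 h against -0.01 over all tested genes (at an unadjusted p under 0.05, 2 did at each). They include Aldh2, the main mitochondrial acetaldehyde dehydrogenase, at group means of 170 to 218 RPM. Of 5 other tested nucleotide receptors 0 passed (unadjusted, 0 at 14 h and 1 without s4U), with medians of -0.36 and 0.47, and of 8 tested genes of the P2Y6 signalling route, such as Gnaq at 17.3 to 28 RPM, 0 passed (unadjusted, 2 and 0), with medians of -0.13 and 0.23. Of 14 tested transmembrane adaptors and their partners, such as Grb2 at 170 to 260 and Syk at 13.6 to 23.7 RPM, 0 passed (unadjusted, 1 and 2), with medians of -0.06 and 0.12.

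Of 22 tested SCAN zinc finger genes other than Zfp397, 1 was higher at 14 h: Zkscan17, at 67.5 ± 6.26 RPM in DMSO and 100.2 ± 14.4 in STM2457 (SD, n = 4 each), a log2 fold change of 0.58 ± 0.15 (edgeR adjusted p = 0.00775), where 2.34% of tested genes passed. Without s4U, where 2.58% passed, 2 were higher, Zfp24 by 0.58 ± 0.13 (adjusted p = 0.00208) and Zkscan6 by 0.86 ± 0.21 (adjusted p = 0.00551), and the median of the list was 0.09 at 14 h and 0.42 without s4U, against -0.01 and 0.001 over all tested genes. At an unadjusted p under 0.05, 5 of the 22 did at 14 h and 9 without s4U, against 16.7% and 20.2% of all tested genes. Of 13 KRAB zinc finger corepressor genes, which include Trim28 at 745 to 1701 RPM, 0 passed at 14 h or without s4U (unadjusted, 1 at each), with medians of -0.02 and -0.04. At 18 h, where 5.41% of tested genes passed, 1 of the 13 was higher, Smarcad1, at 25.5 ± 4.25 RPM in DMSO and 46.5 ± 5.28 in STM2457 (SD, n = 4 each), a log2 fold change of 0.90 ± 0.18 (edgeR adjusted p = 0.000242).

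Markers of cell types were measured beside these results. Of 9 tested pluripotency markers, 3 were higher in STM2457 at 14 h: Nanog by 0.49 ± 0.12 (edgeR adjusted p = 0.00625), Tfcp2l1 by 0.81 ± 0.18 (adjusted p = 0.0015) and Zfp42 by 0.85 ± 0.21 (adjusted p = 0.00605), where 2.34% of tested genes passed. The median log2 fold change of the 9 at 14 h was 0.04 (range -0.57 to 0.85), and their summed level was 4082 to 4280 RPM in DMSO and 4097 to 4380 in STM2457, with the treatments overlapping. At 18 h, where 5.41% of tested genes passed, these 3 and Esrrb (0.81 ± 0.14) were higher. The summed level of the 9 genes was 3790 to 4025 RPM in the DMSO libraries at 18 h, below the 4051 to 4229 of STM2457, and reached 5548 in unlabelled DMSO. The summed level of 9 blood cell markers was 8.99 to 14.5 RPM in DMSO at 18 h, where Lat2 and P2ry6 were high, and 1.71 to 15.5 elsewhere, most of it from Cd68, a lysosomal protein of macrophages that other cells make too, at 10.3 RPM in DMSO and 4.85 in STM2457. Ptprc and Lyz2 were at 0 in DMSO at 18 h. The 8 fibroblast markers summed to 5.80 to 12.8 RPM in DMSO and 7.29 to 14.6 in STM2457 at 18 h. None of the tested blood (2), fibroblast (2) or germ layer (4) markers passed at 14 h or without s4U (unadjusted, 0 at 14 h and 2 germ layer markers without s4U). The 6 germ layer markers summed to 20.7 to 29 RPM in DMSO and 22.7 to 36.4 in STM2457 at 18 h. Without s4U they summed to 62 to 83.3 in DMSO and 25.5 to 53.5 in STM2457. At 11.3 h they summed to 42.4 to 49.4 in DMSO and 18.1 to 23.6 in STM2457. At all other times the treatments overlapped in this sum. The part of these markers in the results was not tested.

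The tested genes next to the 5 on their chromosomes did not pass the threshold at 14 h, at 18 h or without s4U. These were Shb and Igfbpl1 beside Aldh1b1, Mapre2 and Zfp35 beside Zfp397, Zfp719 and Ctu1 beside Zfp819, Arhgef17 and Fchsd2 beside P2ry6, and Clip2 and Eif4h beside Lat2. At 18 h their log2 fold changes ran from -0.45 ± 0.53 (Clip2) to 0.55 ± 0.39 (Igfbpl1). Lat2 overlaps Rfc2, a replication factor C subunit, on the other strand, and Rfc2 was at -0.10 ± 0.14 at 18 h. P2ry6 overlaps the unstudied transcript Gm44545 on the other strand. The library kit keeps the strand.

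The genes whose group means followed each of the 5 most closely are given as a description, by Pearson's r of mean log2 CPM over the 18 groups among 7648 tested genes that varied at least 2-fold between groups. The groups share a cell line and a sequencing pool, and r is across groups, not replicates. Aldh1b1 was followed by Mrpl43 (r = 0.88), Ndufaf1 (0.85) and Phax (0.85). Mrpl43, a mitochondrial ribosomal protein, was at 96.1 RPM in DMSO and 212 in STM2457 at 18 h, and Phax, an export adaptor of snRNA, at 125.7 and 261. Zfp819 was followed by Sephs2 (0.95), Gspt2 (0.93) and Aurka (0.92). Aurka, the mitotic kinase Aurora A, was at 158 RPM in DMSO at 6 h and at 53.3 in DMSO and 95.2 in STM2457 at 18 h. Zfp397 was followed by AA465934 (0.89), Gspt2 (0.86) and Polr3k (0.86). Gspt2, a translation release factor, was at 20.9 RPM in DMSO at 6 h, and at 5.76 in DMSO and 17.1 in STM2457 at 18 h. Lat2 was followed by Ctc1 (0.89), Cux2 (0.88) and Cpt1c (0.86), and P2ry6 by Tmem198 (0.81), Fam83h (0.80) and Galnt10 (0.76). Ctc1, a telomere maintenance protein, was at 158 RPM in DMSO and 88.6 in STM2457 at 18 h. Among the 5 genes themselves, Zfp397 and Zfp819 had r = 0.75 and P2ry6 and Lat2 r = 0.53.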

How the data were processed

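SLAM-seq libraries (QuantSeq 3′ FWD) of 71 wells were analysed from the deposited tables, 1 per library. The authors mapped reads with SLAM-DUNK to GRCm38.p6, masked variants called in merged unlabelled libraries and counted on 3′ UTR windows filtered to GENCODE M23, and the submitters' processing notes name FastQC 0.11.8. The values used were raw read counts as deposited by the authors, deposited CPM (counts scaled to 1000000 counted reads, printed as RPM) and the deposited conversion rate, a fraction of covered T positions, printed as percent. Multimapping reads were 22.5% to 28.8% of counted reads.

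Read counts were fitted with edgeR 4.0.16 (quasi-likelihood, TMM, filterByExpr) over all libraries in 1 model with 18 groups, and p-values were Benjamini-Hochberg adjusted over 12659 genes at 0.01. SE is the log2 fold change over the square root of F. Conversion rates at T1 to T6 and without s4U were compared by two-sided exact permutation tests. Intervals cover counting error only where so named. The fits were tested on simulated data. DESeq2 1.42.0, other scalings, filters, a replicate block and left-out libraries were tried.

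Members and lists were chosen with earlier results of these data known. Named genes are the 5 members, the 3 most correlated genes of each, their nearest tested neighbours and list genes past the threshold at T6 (up to 4), with defining markers. List genes past the threshold at other times and the overlapping Rfc2 and Gm44545 were named after their values were seen. Treatment hours of unlabelled libraries are not given in the sources used here.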

Additional observations from a re-analysis of the deposited data

Results flagged for a closer look

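In 5 of 84 groups of 4 libraries (5 genes), the most extreme library stood apart from the other 3 by more than Dixon's limit. Chance alone gives about 1 in 20 for normally distributed values, a rate that does not hold for groups with few reads. Aldh1b1 in STM2457 at 8.3 h was at 1.80 RPM in replicate 2, below the others. Lat2 in DMSO was at 4.15 in replicate 1 at 7.5 h, above the others, and at 0.348 in replicate 1 at 8.3 h, below them. P2ry6 at 6 h was at 2.41 in DMSO replicate 1, above the others. It was at 0.152 (1 read) in STM2457 replicate 4, where the others held 0, so that 1 read was enough to pass the limit.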

How the results depend on the processing

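Over 71 libraries the number of genes passing at 7, 8.3, 9.5, 11.3 and 14 h (194, 204, 164, 563 and 296) became 0, 453, 310, 159 and 541 with only the 2 groups in the edgeR fit (at 7 h, 757 at an unadjusted p under 0.05), and that without s4U (326) became 107. DESeq2 gave 311 at 8.3 h, 86 for the difference between slopes (30) and 67 for the difference between steps (23). The slope difference gave 18 with no filter on low counts and 18 with equal time steps, and 0 without T6 (edgeR, 812 at an unadjusted p under 0.05, and 12 by DESeq2). Of the 5 genes, 1 (Zfp819) passed at 14 h and for the step difference with no filter and with DESeq2, and 1 (Zfp819) for the STM2457 slope with DESeq2. Without T6 the slope difference reversed to -0.045 for Aldh1b1 and -0.14 for Zfp819.

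Leaving out 1 library at a time, the number of genes passing ranged from 136 to 206 at 7 h, 491 to 1115 at 7.5 h, 117 to 158 at 8.3 h, 86 to 123 at 9.5 h, 240 to 885 at 11.3 h, 204 to 254 at 14 h, 515 to 600 at 18 h and 151 to 295 without s4U. Leaving out 1 replicate number, it ranged from 101 to 1119 for the DMSO slope, 155 to 265 for the STM2457 slope, 0 to 11 for their difference, 102 to 961 for the DMSO step, 0 to 18 for the step difference and 1718 to 2863 for the mean over T1 to T6. Of the 5 genes 0 to 1 passed at 14 h. Log2 values that changed sign ranged from -0.049 to 0.42 for Aldh1b1 at 8.3 h, -0.10 to 0.084 for its DMSO slope, -0.036 to 0.34 for Zfp397 at 14 h, -0.35 to 0.068 for Zfp397 without s4U and -0.24 to 0.20 for Zfp819 without s4U, where none had passed.

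With the replicate number as a block, 317 genes passed at 14 h and 341 without s4U, and no call on the 5 genes changed. The labels tie no number to a shared culture, and the deviations of same-numbered libraries had a mean correlation of 0.0075 over 35 pairs, 1 of them above 0.1. Lat2 was not fitted with only 2 groups at 6 h and 14 h, where it failed the filter. Such fits were not listed singly for Lat2 at other times before 18 h or without s4U. For P2ry6 they were listed at 18 h only. Outside DMSO at 18 h, P2ry6 reached the level of the main filter in 4 libraries. For all changes listed the cause was not tested, except that leaving out libraries leaves fewer samples. Depth limits P2ry6 and Lat2 at every time.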
